A study of Mus musculus with 4 samples.

Results

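Effector CD8 T cells lacking Tcf7 were followed in EO771 mammary tumors grown from a transplantable tumor line of the C57BL/6 mouse. A cell was counted as a member when it held at least 2 UMIs (unique molecular identifiers, each standing for 1 captured transcript) of Cd8a and Cd8b1 together, at least 2 UMIs of the Cd3 genes, and no UMI of Tcf7, Foxp3 or Trdc. Members also had to stay under 300 UMIs of S100a8 and S100a9 and under 20 UMIs of the C1q genes per 10000 UMIs of the cell, and could not hold both Mki67 and Top2a. By this rule 1823 of the 28418 cells that the authors kept and that could be given to a tumor were members, which is 6.41%. The rule rests on measured values of these cells, so the genes in it are not counted as results between populations. By genotype, which the rule did not use, they were tested with the other genes. The rule limits the values of S100a8, S100a9 and the C1q genes there too.

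The tumors came from female mice whose Csf1r alleles were floxed in every animal, so that the control group, Csf1rfl/fl, carried the floxed alleles without Cre. In the other group, Lyve1CreCsf1rfl/fl (hereafter Lyve1Cre), Cre is made where Lyve1 is active, which takes in LYVE-1+ macrophages and lymphatic endothelium, and removes the receptor for the macrophage growth factor CSF1. Tumors grew in the mammary fat pad to 1.5 cm3, and viable CD45+ leukocytes of 2 tumors per genotype were sequenced in 2 Chromium runs, each holding 1 tumor of each genotype marked by hashtag antibodies. Ages of these mice are not given in the sources used here. In what follows, 4 values in a row stand for the control tumors of run 1 and run 2 and then the Lyve1Cre tumors of run 1 and run 2, and levels are UMIs per 10000 UMIs of the population in that tumor.

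CD8 T cells kill target cells by releasing perforin, which opens membranes, and granzymes, the serine proteases that enter through the openings. TCF-1, the product of Tcf7, keeps CD8 T cells in a memory-like state from which effector cells arise, and in tumors and chronic infection its loss goes with terminal differentiation, granzymes and inhibitory receptors such as PD-1. RUNX3, a transcription factor of the killer lineages, and the T-box factors T-bet and EOMES are known regulators of granule genes. T cells that stay in tissue tend to carry CXCR6, and those that leave through lymph need S1PR1 and CCR7.

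The 4 tumors held 885, 293, 380 and 265 members, with a median of 4845, 4610, 4075.5 and 4880 UMIs per cell and 5370538, 1688216, 1765461 and 1449632 UMIs in all. The control tumor of run 1 gave the most cells and UMIs. Of the members, 201 had exactly the 2 Cd8 UMIs required and 214 further cells missed by 1 Cd8 UMI, while 201 cells stood outside by a single Tcf7 UMI and 251 by 2 or more. The median member held 6 Cd8 UMIs and 12 Cd3 UMIs. A Tcf7 count of 0 can also arise in a shallow cell that expresses the gene, so members are cells without a Tcf7 UMI and not cells shown to lack the protein.

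Markers that the rule did not use were then read in members. Nkg7, Cxcr6, Ifng and Gzmf were chosen with earlier results of these data known, so they describe members and give no independent support for the label. For these shares each cell was thinned to 2000 UMIs before the rules were applied. The 624, 253, 254 and 236 cells that then met the rule are called thinned members and are not the same set as members. Members that lost Cd8 or Cd3 UMIs dropped out, and cells that lost Tcf7, Mki67 or Top2a UMIs could enter. Trac, the constant region of the T cell receptor alpha chain, was found in 69.9% of thinned members, against 1.67% of neutrophils in the same tumors. Nkg7, a granule membrane protein needed for killing, reached 93.7% of thinned members against 4.21% of neutrophils. Cxcr6 reached 50.5% against 0.283%, Ifng (interferon gamma) 39.8% against 0.755% and Gzmf (granzyme F) 7.53% against 0.157%. Neutrophils should lack these genes, so their shares gave a background of free RNA, and all 4 markers stood above it in members. The neutrophils were chosen for having no Cd3 UMI, so this background may be too low for genes of T cells. Without thinning the shares in members were 97.6%, 72.2%, 58.1% and 10.8%, in the order Nkg7, Cxcr6, Ifng and Gzmf. Gzma was found in 6.22% of thinned members and 4.25% of neutrophils, so its detection in members was read as background. Entpd1 was found in 15.4% and 61.6%, Ccl3 in 44.5% and 74.2% and Ccl4 in 60.9% and 72.4%. Neutrophils held these 3 genes more often than members and so gave no background for them.

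Markers of other cells were also present. Summed levels of the 4 NK markers were 0.227, 0.030, 0.096 and 0.083, those of the 4 B cell markers lay between 0.040 and 0.752 and those of the 5 tumor and stroma markers between 0.024 and 0.073. The 3 CD4 and regulatory T cell markers, with Foxp3 at 0 by the rule, summed to 0.350 to 0.766. The 4 gamma delta T cell markers, with Trdc at 0 by the rule, summed to 0.735, 1.55, 1.03 and 0.966. The 4 neutrophil markers summed to 18.2, 9.64, 10.8 and 4.02, the 6 macrophage and monocyte markers to 13.4, 9.80, 7.10 and 7.71, and the 4 MHC class II markers to 31.6, 26.8, 15.9 and 22.9, with none of these 14 genes at 0. The caller Scrublet marked 393 members (21.6%) as doublets, with shares of 27.2%, 17.1%, 16.3% and 15.1%, and these held a median of 8592 UMIs against 3944.5 in the other members. Without them the neutrophil sums fell to 3.44, 2.89, 3.48 and 2.70 the macrophage sums to 1.87, 2.17, 0.90 and 3.28, and the MHC class II sums to 15.0, 7.44, 6.56 and 11.4. RNA of myeloid cells thus differed between tumors, and a large part of it lay in cells called doublets. Of the barcodes, 200 occurred in both runs, 60 of them among kept cells, and such cells were told apart by run.

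The granule genes were the first group. For orientation, the mm10 annotation places Gzmf at chr14:56205263-56211417 on the minus strand and Gzmb at chr14:56258838-56262260 on the minus strand, within the granzyme cluster of chromosome 14. Since the killer genes of this cluster were read together, the 250 bases upstream of the start of 3 of them and of perforin were taken from RefSeq (GRCm38.p6) and are shown 5′ to 3′ on the strand of the gene, with the RUNX letters TGTGGT in capitals, or ACCACA where the match is on the other strand.
Gzmf, chr14:56211408-56211657, minus strand: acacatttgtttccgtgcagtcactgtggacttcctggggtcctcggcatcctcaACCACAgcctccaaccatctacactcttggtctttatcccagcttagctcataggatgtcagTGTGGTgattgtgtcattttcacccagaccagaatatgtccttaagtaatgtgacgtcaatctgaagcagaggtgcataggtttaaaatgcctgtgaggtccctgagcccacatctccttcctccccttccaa
Gzmd, chr14:56132594-56132843, minus strand: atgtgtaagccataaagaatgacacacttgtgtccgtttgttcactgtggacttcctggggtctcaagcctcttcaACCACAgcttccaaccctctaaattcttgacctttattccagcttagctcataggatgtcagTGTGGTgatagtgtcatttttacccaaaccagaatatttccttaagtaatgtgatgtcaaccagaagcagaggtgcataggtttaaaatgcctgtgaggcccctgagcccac
Gzmb, chr14:56262335-56262584, minus strand: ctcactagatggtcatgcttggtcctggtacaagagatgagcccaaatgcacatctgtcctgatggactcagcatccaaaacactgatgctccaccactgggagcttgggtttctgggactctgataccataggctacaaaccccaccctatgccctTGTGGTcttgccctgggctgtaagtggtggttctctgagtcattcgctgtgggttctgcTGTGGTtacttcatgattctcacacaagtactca
Prf1, chr10:61297586-61297835, plus strand: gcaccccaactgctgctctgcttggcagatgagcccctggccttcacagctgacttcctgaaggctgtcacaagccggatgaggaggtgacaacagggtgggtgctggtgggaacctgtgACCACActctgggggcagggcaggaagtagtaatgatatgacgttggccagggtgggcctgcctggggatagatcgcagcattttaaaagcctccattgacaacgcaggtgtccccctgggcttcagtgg

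In the 250 bases of Gzmf the 2 matches began at −195 and −133 from the start, in Gzmd at −174 and −112, in Gzmb at −93 and −34, and in Prf1 the 1 match began at −130. The spacing of the pair was alike in Gzmf and Gzmd. Gzmc, Gzme and Gzmg also held 2 matches each, whereas Nkg7, Gzma, Cxcr6, Havcr2 and Xcl1 held 1 and Gzmk, Ifng, Pdcd1 and Slamf6 held 0. Over 32851 RefSeq promoters of the same length 14.0% held at least 1 match and 1.27% at least 2. Gzmc to Gzmg are close copies of each other, so their pairs are not independent cases to set beside these shares. No match overlapped the T-box letters AGGTGNNA or the AP-1 letters TGANTCA, which occurred in 13.7% and 6.75% of all promoters. These are matches of letters, and binding was not measured.

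Runx3 itself stood at 3.06, 5.28, 3.82 and 4.68 UMIs per 10000 in members. In the comparisons described below, its log2 difference was 0.29 ± 0.08 from Tcf7-positive CD8 T cells (edgeR adjusted p = 0.0347), 0.21 ± 0.06 from cycling CD8 T cells (adjusted p = 0.0213) and −0.23 ± 0.08 from NK cells (adjusted p = 0.0442). None of these calls held in DESeq2 or in thinned cells, nor in at least 3 of the 4 fits without a tumor. The levels of 12 genes in members and in 4 other populations of the same tumors are plotted by tumor.

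**Figure D1:**
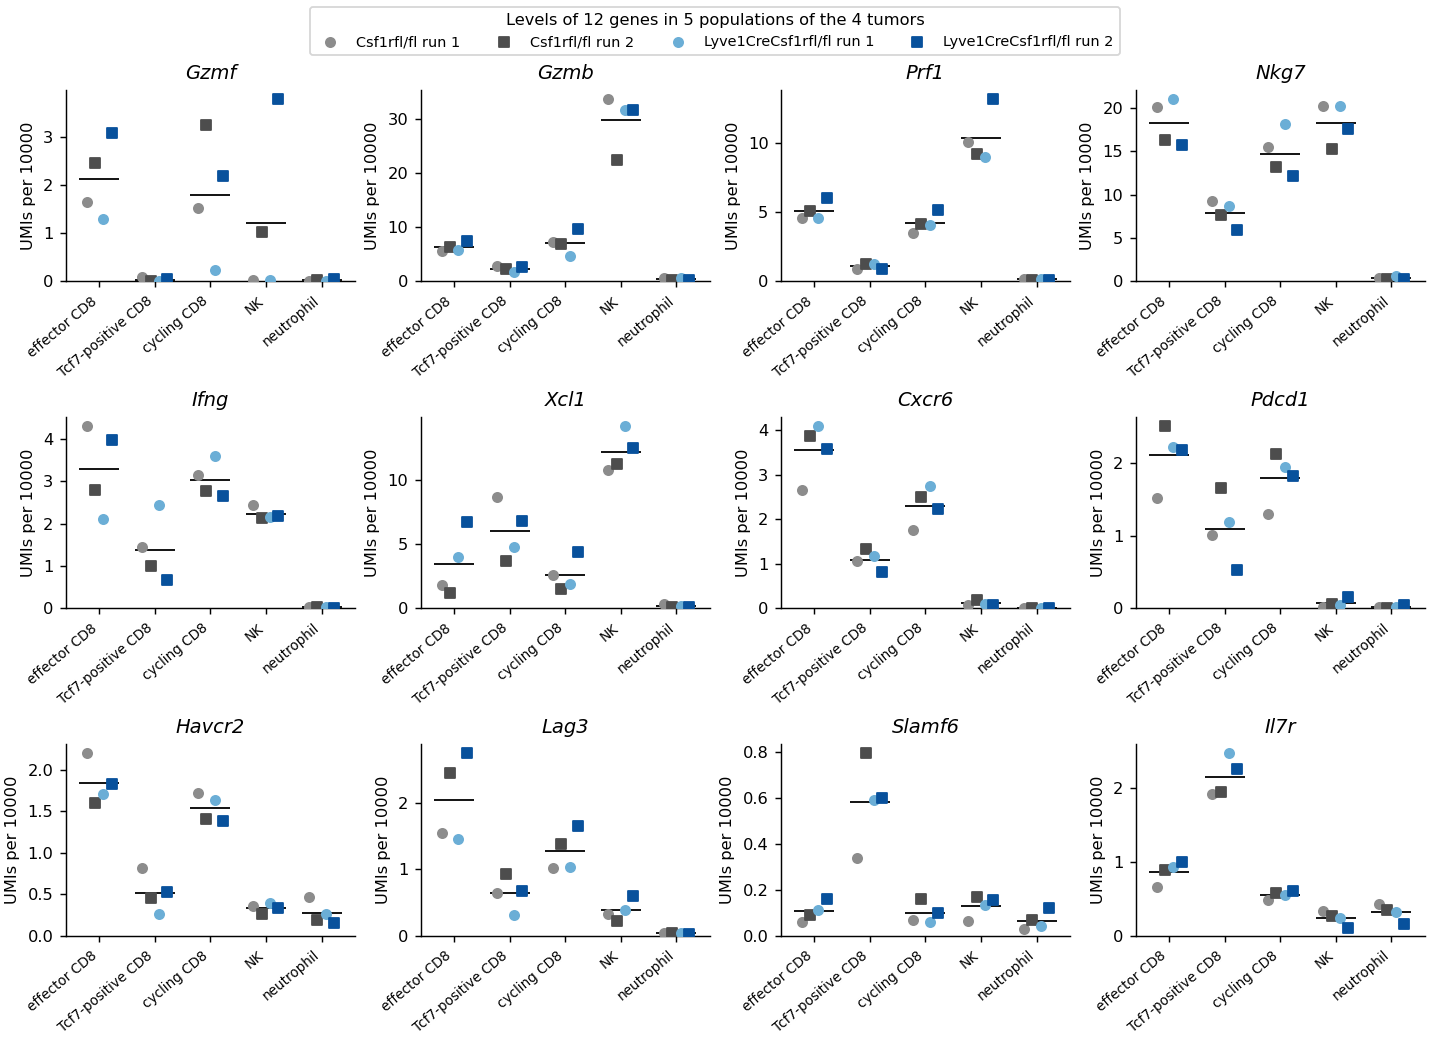
Levels of 12 genes (UMIs per 10000 UMIs of the population, y axis of each panel) in effector CD8 T cells lacking Tcf7, Tcf7-positive CD8 T cells, cycling CD8 T cells, NK cells and neutrophils (x axis). Each point is 1 of the 4 tumors and the line is their mean; in all 4 tumors Gzmf, Cxcr6 and Prf1 stood higher in effector than in Tcf7-positive CD8 T cells.

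Members were compared with 3 other populations of the same tumors, defined by similar UMI limits. Tcf7-positive CD8 T cells (452 cells: 104, 70, 83 and 195) followed the rule but held at least 1 Tcf7 UMI. Cycling CD8 T cells (770 cells: 301, 181, 127 and 161) held both Mki67 and Top2a and, like members, no Tcf7 UMI. NK cells (770 cells: 230, 197, 189 and 154) held Ncr1 and Klrb1c and no UMI of the Cd3 or Cd8 genes. UMIs were summed over the cells of each population in each tumor and tested with edgeR's quasi-likelihood test with the tumor as a term (n = 4 tumors), adjusted by Benjamini-Hochberg over all genes tested. Differences are log2 of members over the other population ± SE.

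Against Tcf7-positive CD8 T cells, 898 of 8550 genes passed an adjusted p of 0.05 (10.5%), 386 of them higher in members (4.51%) and 512 lower (5.99%). The populations share their tumors and were split on Tcf7 UMIs of the same cells, and Tcf7-positive cells were deeper, with medians of 6753, 5745, 5017 and 5925 UMIs and doublet calls of 21.7% to 49.0% by tumor. When every cell was thinned to 2000 UMIs before the rules were applied, 260 of 3894 genes passed. Only 27, 24, 26 and 61 Tcf7-positive cells then remained, and cells that lost their Tcf7 UMIs could count as members. Thinning thus changed the cells compared and their number as well as the depth, and these parts of a lost call were not told apart. Perforin and granzymes B and F rose in members, and 20 of 21 naive and memory genes fell.

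Of 18 cytotoxic granule genes tested, 7 were higher in members and 2 lower, with a median difference of 0.29, while the median of all genes was −0.002. Prf1 stood at 4.59, 5.08, 4.59 and 6.02 UMIs per 10000 in members and at 0.914, 1.27, 1.25 and 0.894 in Tcf7-positive cells. The populations did not overlap, and the difference was 2.22 ± 0.13 (edgeR, adjusted p = 1.01e-06). Gzmb, the granzyme best known for triggering caspases, stood at 5.59, 6.40, 5.82 and 7.55 against 2.79, 2.37, 1.68 and 2.59. It was higher in members of every tumor, by 1.37 ± 0.11 (adjusted p = 8.31e-06).

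Gzmf showed the widest gap of the granule genes. Its level was 1.64, 2.46, 1.30 and 3.08 in members and 0.0938, 0, 0 and 0.0526 in Tcf7-positive cells, a fitted difference of 5.51 ± 0.31 (adjusted p = 8.66e-07) that depends on the prior count because 2 tumors held no UMI. Granzymes C to G are close copies of each other, so their counts can be shared between genes. Gzmc stood at 0.227, 0.657, 0.374 and 0.862 in members and at 0.0352, 3.4, 1.39 and 1.49 in Tcf7-positive cells. It was lower in 3 of 4 tumors and higher in the control tumor of run 1, with a difference of −1.30 ± 0.38 (adjusted p = 0.0474) that did not pass in 2 of the 4 fits that left out a tumor. Gzmk, a granzyme of early effector cells, was low in both but higher in members, by 1.37 ± 0.24 (adjusted p = 0.0031), and was not called in thinned cells (1.12, adjusted p = 0.359). Nkg7 was high in both populations, at 20.1, 16.3, 21.0 and 15.7 against 9.25, 7.66, 8.64 and 5.95, and higher in members by 1.17 ± 0.06 (adjusted p = 8.41e-07).

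These genes were spread unevenly over the members. The 5% of members with the most Gzmf held 82.9%, 88.2%, 100% and 91.0% of all Gzmf UMIs, with up to 109, 119, 85 and 128 UMIs in a single cell. The corresponding 5% held 29.0%, 34.0%, 46.4% and 32.2% of Gzmb UMIs and 12.8%, 13.4%, 14.5% and 14.1% of Nkg7 UMIs. Gzmf was therefore a gene of few cells in each tumor and Nkg7 a gene of nearly all. Among thinned members, 59, 18, 9 and 17 cells held Gzmf. Gzmb was found in 79.7%, 72.2%, 77.8% and 94.1% of those cells and in 51.2%, 41.7%, 38.0% and 43.8% of thinned members without Gzmf. Prf1 was found in 74.6%, 83.3%, 88.9% and 94.1% with Gzmf and in 55.8%, 47.7%, 40.4% and 48.4% without. In every tumor both genes were met more often in cells that held Gzmf, which is a description of cells and was not tested.

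Cytokine genes moved in both directions, with 5 of 16 tested higher and 1 lower. Ifng stood at 4.31, 2.79, 2.12 and 3.97 in members and at 1.44, 1.01, 2.43 and 0.661 in Tcf7-positive cells. It was higher in 3 tumors and slightly lower in the Lyve1Cre tumor of run 1, by 1.32 ± 0.30 (adjusted p = 0.0156), and did not pass in DESeq2 (adjusted p = 0.18). Fasl, the ligand of the death receptor Fas, rose by 1.42 ± 0.18 (adjusted p = 0.000317). Ccl4, an inflammatory chemokine, rose by 1.23 ± 0.11 (adjusted p = 2.89e-05), although its level in neutrophils, 46.5 to 80.7, exceeded that in members, 8.99 to 24.3. Xcl1, which attracts XCR1-bearing dendritic cells, stood at 1.85, 1.18, 4.02 and 6.68 against 8.64, 3.70, 4.80 and 6.80. It fell by 1.07 ± 0.28 on the log2 scale (adjusted p = 0.0291), a call that did not pass in 3 of the 4 fits without a tumor. Ccl4 was met more often in members that held Ifng: among thinned members with Ifng, 84.7%, 53.3%, 51.7% and 70.7% held Ccl4, against 71.3%, 46.6%, 35.9% and 39.6% of members without.

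Csf1, the growth factor whose receptor is floxed in these mice, stood at 1.16, 1.41, 1.59 and 1.57 UMIs per 10000 in members. Tcf7-positive cells held 0.516, 0.258, 0.511 and 0.413, so that members stood higher in each tumor, by 1.66 ± 0.16 (adjusted p = 4.54e-05). The difference was 2.75 in thinned cells. Neutrophils held 1.77 to 4.48. In thinned cells, Csf1 was found in 24.9% of members, 26.9% of neutrophils, 2.90% of Tcf7-positive cells and 1.33% of NK cells. Free RNA as a part of the level in members was not tested.

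Inhibitory receptors, which dampen T cell signaling, were higher in members for 8 of 15 genes and lower for 1, with a median of 0.74. Havcr2 (TIM-3) stood at 2.21, 1.61, 1.70 and 1.83 against 0.82, 0.452, 0.266 and 0.526 and rose by 1.76 ± 0.15 (adjusted p = 1.63e-05). Its difference was 2.69 without doublets and 2.85 in thinned cells. Lag3 stood at 1.54, 2.44, 1.46 and 2.75 against 0.633, 0.926, 0.307 and 0.668 and rose by 1.65 ± 0.14 (adjusted p = 2.01e-05). Neither gene overlapped between the populations.

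Pdcd1, which encodes PD-1, was held by both, at 1.52, 2.51, 2.22 and 2.18 against 1.01, 1.66, 1.19 and 0.533. The difference of 0.97 ± 0.19 (adjusted p = 0.00537) was 0.07 in thinned cells (adjusted p = 0.92). Ctla4 was called at 0.74 ± 0.19 (adjusted p = 0.0254) but not in thinned cells (0.57, adjusted p = 0.45), and Tigit was not called (0.38 ± 0.31, adjusted p = 0.518). In thinned cells, with fewer Tcf7-positive cells, neither Pdcd1 nor Ctla4 was called, whereas 4 of 11 receptors tested were still higher and none lower. Out of Pdcd1, Havcr2, Lag3, Tigit and Ctla4, a thinned member held a mean of 1.14, 1.30, 1.07 and 1.14 receptors, a Tcf7-positive cell 0.778, 0.625, 0.692 and 0.443 and a neutrophil 0.106, 0.0595, 0.0539 and 0.0386. Cells with at least 3 of the 5 made up 6.41%, 10.3%, 9.06% and 10.6% of thinned members, and cells with none 25.6%, 21.3%, 35.0% and 30.5%.

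Transcription factors of effector cells and exhaustion were higher in members for 9 of 24 genes and lower for 5. Tox, a factor of exhausted cells, stood at 2.82, 2.51, 2.01 and 2.08 against 1.58, 1.61, 1.23 and 0.976, higher in each tumor by 0.78 ± 0.10 (adjusted p = 0.000412). Prdm1 (Blimp-1), a repressor of memory genes, rose by 1.39 ± 0.18 (adjusted p = 0.000346) but was not called in thinned cells (1.52, adjusted p = 0.122). Id2, which holds E proteins in check, rose by 0.85 ± 0.09 (adjusted p = 9.74e-05). Id3, the counterpart of Id2 in memory cells and counted in the naive and memory list, fell by 2.66 ± 0.22 (adjusted p = 1.24e-05). Tbx21 (T-bet) was called at 0.84 ± 0.18 (adjusted p = 0.00982), but not in thinned cells (0.70, adjusted p = 0.459), in DESeq2 (adjusted p = 0.0552) or in 2 of the 4 fits without a tumor. Eomes was called at −0.71 ± 0.19 (adjusted p = 0.0336), but not in DESeq2 (adjusted p = 0.246) or in 3 of the 4 fits without a tumor. Nr4a2, induced by receptor signaling, rose by 1.11 ± 0.11 (adjusted p = 4.23e-05), but the difference was 0.20 in thinned cells (adjusted p = 0.71). After thinning 3 of 22 factors were higher and none lower.

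The naive and memory genes gave the most uniform result, with 20 of 21 tested lower in members and none higher and a median of −1.37. In thinned cells 13 of 16 were lower, and without doublets 18 of 18. The MHC class II markers of dendritic cells summed to 29.4, 30.5, 47.1 and 43.9 in Tcf7-positive cells, above members in all but the control tumor of run 1, and their part in these falls was not tested beyond the count without doublets. Fscn1, a gene of mature dendritic cells, was also lower in members (−1.73 ± 0.24, adjusted p = 0.000616). Slamf6, a surface marker of Tcf7-expressing CD8 T cells, stood at 0.0596, 0.0889, 0.113 and 0.159 in members and at 0.34, 0.797, 0.593 and 0.601 in Tcf7-positive cells, and fell by 2.50 ± 0.21 (adjusted p = 1.63e-05). Lef1, the partner factor of TCF-1, was lower by a difference of −3.02 ± 0.28 (adjusted p = 3.39e-05). Il7r, the receptor for the survival cytokine IL-7, stood at 0.659, 0.889, 0.923 and 0.993 against 1.91, 1.94, 2.47 and 2.26. It did not overlap and fell by 1.38 ± 0.10 (adjusted p = 7.25e-06). Satb1, a chromatin organizer of early T cells, was lower by −1.98 ± 0.14 (adjusted p = 4.88e-06).

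Of 21 residency and trafficking genes 8 were higher and 6 lower. Cxcr6, which binds the membrane-bound chemokine CXCL16, stood at 2.66, 3.87, 4.10 and 3.59 against 1.05, 1.33, 1.19 and 0.811. The populations did not overlap and the difference was 1.65 ± 0.12 (adjusted p = 6.33e-06). Cx3cr1, the fractalkine receptor of circulating effector cells, rose by 1.39 ± 0.21 (adjusted p = 0.00115) and Itga1, the collagen-binding integrin of resident cells, by 1.10 ± 0.22 (adjusted p = 0.00762), the latter not called in DESeq2 (adjusted p = 0.0649). Rgs16, which shortens G protein signals and rises in activated T cells, was higher by 1.43 ± 0.13 (adjusted p = 2.52e-05). Lower were 4 receptors that guide migration, of which S1pr1 and Ccr7 belong to the naive and memory list: S1pr1 at 0.0521, 0.113, 0.164 and 0.228 against 0.293, 0.969, 0.409 and 1.35 (−2.47 ± 0.23, adjusted p = 2.89e-05), Ccr7 (−1.81 ± 0.18, adjusted p = 5.28e-05), Cxcr4 (−1.62 ± 0.15, adjusted p = 3.56e-05) and Cxcr3 (−1.13 ± 0.19, adjusted p = 0.00225). Itgae, the other well known residency integrin, was not called (−1.14 ± 0.35, adjusted p = 0.0595).

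Of the immediate early genes 12 of 21 were lower and none higher, with a median of −0.44, and 9 of 19 were lower in thinned cells. Fos stood at 2.03, 1.66, 1.27 and 1.81 against 3.68, 2.71, 2.31 and 4.27 (−0.98 ± 0.10, adjusted p = 9.37e-05), with 7.05 to 10.8 in neutrophils. Actin and migration genes were higher for 10 of 21 and lower for none, also in thinned cells (10 of 20), while their median difference was 0.17. Among receptors shared with NK cells 5 of 14 were higher and 4 lower, with Klrd1, the CD94 chain of the NKG2 receptors, up by 0.88 ± 0.07 (adjusted p = 8.6e-06) and its partner Klrc1 (NKG2A) by 1.07 ± 0.13 (adjusted p = 0.000306). Of 24 cell cycle genes 12 were higher and 1 lower, with a median of 0.60. The rule left out only cells holding both Mki67 and Top2a, and 572 members held 1 of them. Both are more readily detected in deeper cells, such as the Tcf7-positive ones, and the part of this in the difference was not tested. Without doublets 3 of 22 were higher (median 0.40) and in thinned cells 2 of 19 (median 0.49). Interferon-stimulated genes were lower for 7 of 29 and higher for 1, with Isg15, a ubiquitin-like protein, at −0.67 ± 0.11 (adjusted p = 0.00171) and −0.02 in thinned cells (adjusted p = 0.975). Glycolysis and hypoxia genes were higher for 5 of 20, of which Ldha, lactate dehydrogenase, rose by 0.38 ± 0.08 (adjusted p = 0.00926).

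**Figure D2:**
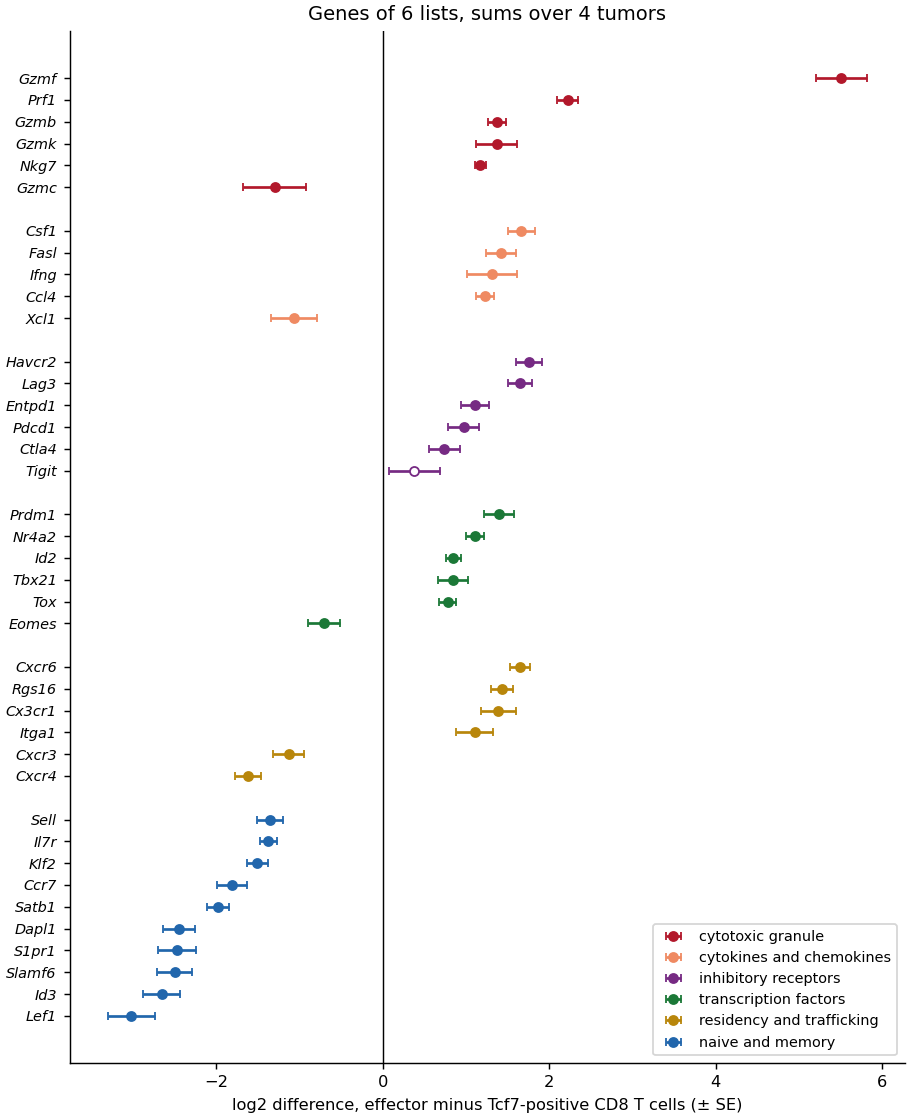
Log2 difference of 39 genes from 6 gene lists (y axis) between effector CD8 T cells lacking Tcf7 and Tcf7-positive CD8 T cells (x axis, with bars of 1 SE from edgeR over 4 tumors). Filled points passed an adjusted p of 0.05 and the open point, Tigit, did not; the naive and memory genes lie left of 0 and Gzmf, at 5.51, farthest to the right.

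Genes outside these lists also separated the populations, and the largest rises and falls with at least 20 UMIs in the higher population of every tumor were read out. Among rises were the G protein-coupled receptors Glp1r (3.10 ± 0.54, adjusted p = 0.00283), better known from pancreatic islets, Adrb1, the beta-1 adrenergic receptor (2.62 ± 0.51), and Adgrg1, an adhesion receptor of cytotoxic lymphocytes (2.47 ± 0.37). Adgrg1 stood at 0.447, 0.456, 0.527 and 0.435 in members and at 0.141, 0.151, 0 and 0.0375 in Tcf7-positive cells. Ltf, the iron-binding protein lactoferrin of neutrophil granules, stood at 0.477, 0.462, 0.566 and 0.814 in members, above the 0.0758 to 0.151 in neutrophils selected on S100a8 and S100a9 and the 0.0451 to 0.237 in Tcf7-positive cells (2.29 ± 0.34, adjusted p = 0.00111). All of these genes were low, and Glp1r lay between 0.136 and 0.159 in members of the 4 tumors.

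NK cells are the other killer lymphocytes of the tumor. Against them 1755 of 8375 genes passed (21%), with 829 higher in members (9.9%) and 926 lower (11.1%), and the median of all genes was 0.003. The killing genes were split: of 21 cytotoxic granule genes 5 were higher in members and 12 lower, with a median of −0.78. Gzma was at background in members, as above, and at 123, 73.7, 114 and 100 UMIs per 10000 in NK cells (−5.95 ± 0.31, adjusted p = 3.89e-10). Gzmb stood at 33.8, 22.4, 31.8 and 31.8 in NK cells, above every member value (−2.29 ± 0.10, adjusted p = 5.36e-11), and Prf1 at 10.1, 9.16, 8.99 and 13.2 (−1.08 ± 0.07, adjusted p = 1.1e-08). Gzmc was higher in NK cells as well, at 20.2, 7.2, 20.4 and 28.7 (−5.28 ± 0.31, adjusted p = 2.17e-09).

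Nkg7 was not called between members and NK cells, with a difference of −0.05 ± 0.06 (adjusted p = 0.61). Gzmk was higher in members by 2.70 ± 0.25 (adjusted p = 4.92e-07). Gzmf was higher as well, by 1.39 ± 0.47 (adjusted p = 0.0438), but its NK levels of 0.0245, 1.02, 0.0336 and 3.79 rested on few cells, with 0.508% of the 197 NK cells of the control tumor of run 2 holding any UMI and 1.30% of all NK cells. The call was lost in 3 of the 4 fits without a tumor and without the tumor term (adjusted p = 0.64), but the difference was larger in thinned cells (6.11, adjusted p = 1.54e-19). Ifng was higher in members by 0.48 ± 0.12 (adjusted p = 0.00795), a call that did not pass in 2 fits without a tumor. Ccl5, a chemokine of killer cells, lay between 17.3 and 29.9 in members and between 37.0 and 78.4 in NK cells (−1.33 ± 0.06, adjusted p = 2.89e-11).

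Inhibitory receptors ran the other way, with 12 of 16 higher in members and 2 lower, a median of 1.17, and 8 of 12 higher in thinned cells. Pdcd1 was near absent from NK cells, at 0.0245, 0.0625, 0.0449 and 0.154, and higher in members by 4.90 ± 0.21 (adjusted p = 3.56e-11). Havcr2 was higher by 2.41 ± 0.12 (adjusted p = 2.97e-10), Lag3 by 2.38 ± 0.17 (adjusted p = 1.85e-08) and Tox by 2.66 ± 0.15 (adjusted p = 8.85e-10). Cxcr6 stood at 0.0816, 0.188, 0.101 and 0.0828 in NK cells (4.90 ± 0.15, adjusted p = 5.23e-13), and Csf1 at 0.0326, 0.146, 0.146 and 0.0237 (4.01 ± 0.24, adjusted p = 1.83e-09). Both were thus higher in members in all 4 tumors. Against cycling cells Csf1 was higher in members as well, by 0.74 ± 0.09 (adjusted p = 3.83e-05). Members also held more of 7 of 10 costimulatory receptors and less of 1, with Tnfrsf4 (OX40) higher by 3.96 ± 0.21 (adjusted p = 6.52e-10) and Icos by 1.60 ± 0.16 (adjusted p = 1.39e-06).

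Of 18 receptors of the killer cell families 16 were lower in members, with a median of −2.22, and 1 was higher. That gene was Klrc1, at 2.25, 2.27, 2.75 and 2.79 in members against 1.66, 1.51, 1.50 and 1.90 (0.55 ± 0.09, adjusted p = 0.000225). Klra8 and Klra4, Ly49 receptors that NK cells are known for, were lower by −7.52 ± 0.27 and −6.92 ± 0.26, and members of that family share sequence. Klrk1 (NKG2D) was present in both, at 3.39, 3.44, 3.30 and 3.24 against 5.03, 5.22, 5.08 and 5.75, and lower in members (−0.71 ± 0.08, adjusted p = 3.03e-06). Eomes was lower by −2.92 ± 0.16 (adjusted p = 6.52e-10) and Tbx21 by −0.65 ± 0.12 (adjusted p = 0.000722), so that both T-box factors stood higher in NK cells. Several genes of members held no UMI among the 3922334 UMIs of NK cells: against a floor of 3 UMIs over that population, Themis, a signaling protein of thymocytes and T cells, was at least 149-fold higher, Gldc, the glycine decarboxylase, at least 40.3-fold and Glp1r at least 19.5-fold. In the T cell receptor list 10 of 15 genes were higher and 3 lower, and NK cells were chosen for having no Cd3 UMI. The higher genes were led by Cd5, a brake on receptor signaling, at 6.25 ± 0.32, and Trac at 5.12 ± 0.13 (adjusted p = 1.12e-13). Trbc1 went the other way: it stood at 1.74, 1.93, 2.28 and 0.917 in members and at 4.14, 3.32, 4.12 and 4.25 in NK cells (−1.29 ± 0.16, adjusted p = 1.37e-05), while Trbc2, its close copy, was higher in members by 2.40 ± 0.13 (adjusted p = 4.93e-10).

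Against cycling CD8 T cells 2559 of 9118 genes passed (28.1%), 1095 of them higher in members (12%) and 1464 lower (16.1%). All 26 cell cycle genes tested were lower in members, as the rule makes them. Cycling cells were deeper, with medians of 9282, 8932, 7431 and 9373 UMIs. In thinned cells 526 of 4051 genes passed, with 66, 64, 39 and 65 cycling cells left. Of 20 cytotoxic granule genes 9 were higher in members and 2 lower, and 5 of 17 were higher and 1 lower in thinned cells. Gzmb stood at 7.20, 6.99, 4.70 and 9.73 in cycling cells (−0.17 ± 0.09, adjusted p = 0.183), Gzmf at 1.52, 3.24, 0.23 and 2.19 (0.32 ± 0.23, adjusted p = 0.324) and Ifng at 3.15, 2.77, 3.59 and 2.66 (0.09 ± 0.15, adjusted p = 0.705). These 3 genes were not called, which does not show that they were equal, and in thinned cells Ifng was higher in members (0.58, adjusted p = 0.00386). Prf1 (0.26 ± 0.06, adjusted p = 0.00672; in thinned cells 0.35, adjusted p = 0.058) and Nkg7 (0.31 ± 0.05, adjusted p = 0.000477) were slightly higher in members, and Gzmc was lower (−1.35 ± 0.21, adjusted p = 0.000256), though not called in DESeq2 (adjusted p = 0.132).

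Chemokines differed from cycling cells too. Ccl5 stood at 14.4, 6.27, 8.95 and 5.98 in cycling cells, below members in every tumor (1.45 ± 0.08, adjusted p = 5.35e-09). Of 16 cytokine and chemokine genes 11 were higher in members, and 8 of 12 in thinned cells, while immediate early genes were higher for 17 of 21, and for 10 of 18 when thinned. Cxcr6 rose by 0.60 ± 0.06 (adjusted p = 5.41e-06), Il7r by 0.60 ± 0.10 (adjusted p = 0.000314) and Ccr7 by 1.57 ± 0.19 (adjusted p = 2.19e-05), though members held little Ccr7. Fscn1, the gene of mature dendritic cells named above, rose as well (1.77 ± 0.24, adjusted p = 6.24e-05). The part of dendritic cell RNA in the rise of Ccr7 was not tested. Interferon-stimulated genes were higher for 22 of 29 and residency genes for 13 of 19, with medians of 0.37 and 0.31. In thinned cells 2 of 28 and 2 of 16 passed, with medians of 0.20 and 0.23. Myeloid markers moved with these lists: the MHC class II markers summed to 22.4, 12.6, 11.2 and 17.6 in cycling cells and the macrophage markers to between 3.56 and 12.4, below members in every tumor. Without doublets the counts were 24 of 29 and 14 of 19, and with stricter myeloid limits 21 of 29 and 15 of 19. Lag3 was higher by 0.66 ± 0.08 (adjusted p = 1.38e-05), yet not in thinned cells (0.32, adjusted p = 0.29), and Pdcd1, called at 0.21 ± 0.07 (adjusted p = 0.0347), did not pass in any of the 4 fits without a tumor. Ldha, by contrast, was lower in members (−0.35 ± 0.06, adjusted p = 0.000819), but not called in thinned cells (−0.07, adjusted p = 0.826).

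T cell receptor V genes, which daughter cells keep with the rearranged receptor, differed between tumors. Different clones can use the same V gene, so V genes alone do not identify a clone. V gene names were chosen after their values were seen. In the control tumor of run 1, Trbv20 took 297 of 449 Trbv UMIs of members (66.1%) and was found in 226 of 885 members (25.5%, Wilson interval 22.8% to 28.5%). It was found in 9 of 293, 0 of 380 and 6 of 265 members of the other tumors, where 0 of 380 allows a share of up to 0.789%. Trbv20 was thus far more frequent in members of this tumor than in those of the others. Trbv20 was also found there in 94 of 301 cycling and 17 of 104 Tcf7-positive CD8 T cells, but in 1 of 230 NK cells and 0 of 1397 neutrophils, which allows up to 0.215%. Intervals and limits cover counting error only, and a 3′ library catches V segments in few cells.

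In the same tumor Trav8n-2 took 261 of 401 Trav UMIs (65.1%). Of the 89 Trbv20 members with any Trav UMI, 71 held Trav8n-2, against 14 of the 32 that held another Trbv gene. The alpha and beta genes therefore went together in these cells. In the control tumor of run 2 the leading genes were Trbv2 (34.0% of Trbv UMIs) and Trbv14 (27.8%), each in 31 of 293 members, with Trav6-4 at 41.5% and Trav6-7-dv9 at 39.6% of Trav UMIs. These 2 Trav genes are near copies, and their reads may be split between them. In the Lyve1Cre tumor of run 1 Trbv17 led with 30.8%, in 31 of 380 members, and was found in 0 of 885, 0 of 293 and 0 of 265 members of the other tumors. Trbv16 led in the Lyve1Cre tumor of run 2, with 22.1%. Among Trav genes, Trav6-7-dv9 led in the Lyve1Cre tumor of run 1 (20.3%), and Trav8n-2 led in that of run 2 (35.0%), in 18 of 265 members. Each tumor thus had its own leading Trbv gene, whereas Trav8n-2 led in 2 tumors.

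Members with Trbv20 were compared with those that held another Trbv gene, within the control tumor of run 1. The 226 Trbv20 cells held 5.01 UMIs per 10000 of Prf1, 1.82 of Lag3, 1.62 of Pdcd1 and 2.93 of Cxcr6, and the 100 others 3.98, 1.29, 1.27 and 2.14. Ifng was at 4.04 and 4.83. The median depth was 5303 and 5478.5 UMIs. These are values of 1 tumor with no replicate, and the difference was not tested. The gamma chain gene Trgv2 took 85.5%, 99.4%, 97.9% and 96.1% of the Trgv UMIs of members and was found in 20.3% of thinned members, against 0.157% of neutrophils.

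**Figure D3:**
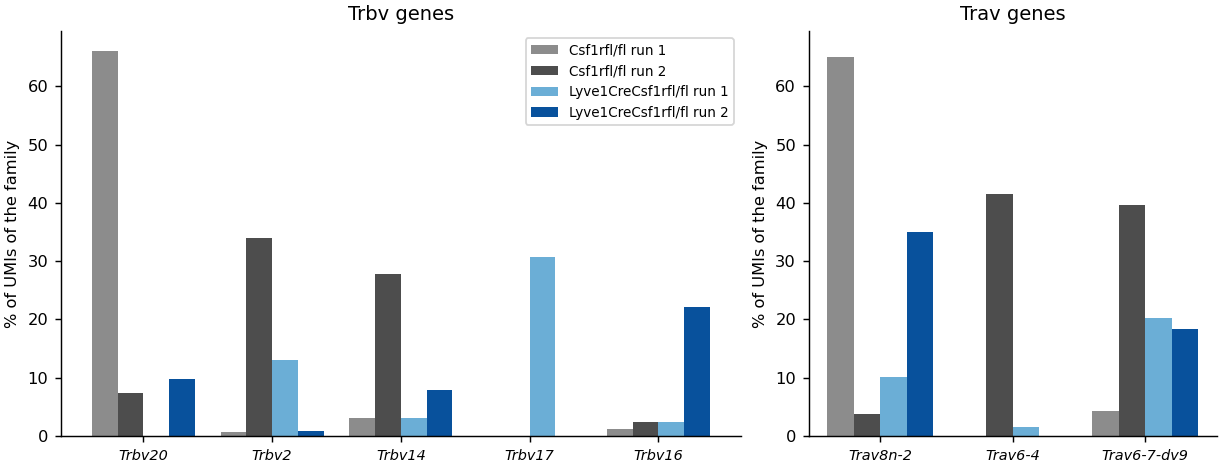
Share of the Trbv UMIs or Trav UMIs of effector CD8 T cells lacking Tcf7 (y axis, percent) taken by 5 Trbv and 3 Trav genes (x axis) in each of the 4 tumors (bars). Trbv20 and Trav8n-2 took 66.1% and 65.1% in the control tumor of run 1, and Trbv17 was found in the Lyve1Cre tumor of run 1 alone.

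The last question was whether loss of Csf1r under Lyve1-Cre went with a change in these cells. Counts from the 3′ end do not show whether a floxed exon is gone, so the deletion could not be checked in them. The authors had also removed clusters made up almost wholly of cells from the second Lyve1Cre tumor. The paper describes these cells as lymphocytes rich in ribosomal gene transcripts, and cells of every tumor in the clusters were dropped. The shares, mainly those of that tumor, are thus what was left after this step. Members made up 10.3%, 3.76%, 5.24% and 5.55% of kept cells, with Wilson intervals of 9.65% to 10.9%, 3.36% to 4.21%, 4.75% to 5.78% and 4.94% to 6.24%. The control tumors lay on both sides of the Lyve1Cre tumors, with means of 7.02% ± 4.60 and 5.40% ± 0.22 (SD, n = 2). The log2 difference was −0.20 (exact two-sided permutation test, p = 1.0), made of −0.97 within run 1 and 0.56 within run 2, and without the control tumor of run 1 it turned to 0.52. With 2 tumors a group no such test can reach 0.05.

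CD8 T cells were taken as members, Tcf7-positive and cycling cells together, so cycling cells with a Tcf7 UMI were left out. Among these CD8 T cells, members took 68.6%, 53.9%, 64.4% and 42.7%, with means of 61.2% ± 10.4 and 53.5% ± 15.4 (SD, n = 2). The groups overlapped (exact two-sided permutation test, p = 0.667). The log2 ratio of Lyve1Cre to control was −0.09 in run 1 and −0.34 in run 2, and without the Lyve1Cre tumor of run 2 the difference turned to 0.083. Tcf7-positive cells took 8.06%, 12.9%, 14.1% and 31.4% of CD8 T cells and cycling cells 23.3%, 33.3%, 21.5% and 25.9%. Thinning to 2000 UMIs raised the share of members to 87.0%, 74.2%, 79.6% and 65.2%, since fewer cells then show Tcf7 or both cycling genes.

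**Figure D4:**
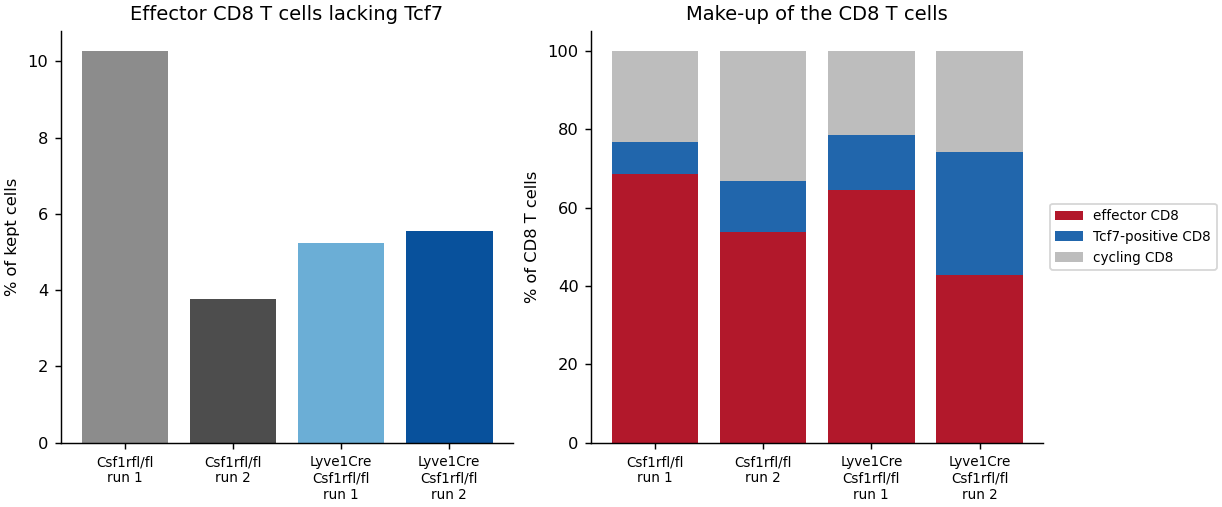
Left, effector CD8 T cells lacking Tcf7 as a percent of kept cells in each of the 4 tumors; right, the make-up of the CD8 T cells of each tumor (effector, Tcf7-positive and cycling, percent). The control tumor of run 1 is highest on the left at 10.3% and that of run 2 lowest at 3.76%, and the Lyve1Cre tumor of run 2 has the highest Tcf7-positive share at 31.4%.

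No gene of members passed by genotype in edgeR (0 of 9145, 0%), with 466 genes at an unadjusted p under 0.05, and DESeq2 called 4. With the Chromium run as a block 126 genes passed, 7 higher in Lyve1Cre and 119 lower, and the numbers pair tumors because a run was 1 batch. Of the 119 lower genes 111 (93.3%) had more than 2 times the level of members in cells rich in C1q or in neutrophils, against none of the 7 higher genes and 14.8% of all genes tested. The neutrophil and macrophage sums of members, given above, were also lower in the Lyve1Cre tumor of each run. These sums hold genes whose levels the rule limited (S100a8, S100a9, C1qa and C1qb), so they are description only. Without the cells called doublets, a choice made after seeing the data, 1 gene passed with the block, and with stricter limits on myeloid RNA 8 did. In thinned cells with the block 49 passed, 15 higher and 34 lower. Leaving out doublets also took the control tumor of run 1 from 885 to 644 members, with fewer UMIs to test. The part of myeloid RNA in any of these calls was not tested.

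Several leading genes of members were not called between genotypes. Gzmb (0.14 ± 0.25), Cxcr6 (0.25 ± 0.26) and Csf1 (0.30 ± 0.22) each had an adjusted p of 0.999, as had Ifng (−0.29 ± 0.34) and Tox (−0.41 ± 0.24). Ccl5, at −0.31 ± 0.35 (adjusted p = 0.999), was lower with the run as a block (−0.32, adjusted p = 0.0216), also with stricter limits (−0.40, adjusted p = 0.0436) or thinning (−0.29, adjusted p = 0.00915). Without doublets the blocked difference was larger but did not pass (−0.51, adjusted p = 0.0683), and its direction without the block turned without the control tumor of run 1 (0.067) or the Lyve1Cre tumor of run 2 (0.015). Xcl1 differed by 1.75 ± 0.34 without being called (adjusted p = 0.378). It was higher in both runs, by 1.07 and 2.46 on levels scaled by TMM. It passed in DESeq2 (1.76, adjusted p = 0.00124), without the low-count filter (adjusted p = 1.28e-06), with the run as a block (1.76, adjusted p = 0.0044) and in thinned cells with the block (adjusted p = 2.22e-13), but not with the block once doublets were left out (1.86, adjusted p = 0.133) or limits were stricter (1.61, adjusted p = 0.0795). Few cells carried the gene: the top 5% of members held 85.4%, 80.9%, 82.0% and 75.6% of its UMIs. Ccl1, a chemokine of activated T cells, stood at 0.944, 0.0948, 2.08 and 6.86 and was not called (2.87 ± 0.81, adjusted p = 0.522). It passed without the low-count filter (2.84, adjusted p = 8.12e-19) and with the block in thinned cells (2.64, adjusted p = 2.24e-36). It did not pass in DESeq2 (2.95, adjusted p = 0.9999) or with the block (2.83, adjusted p = 0.0878). Nor did it pass with the block once doublets were left out (3.07, adjusted p = 0.921) or limits were stricter (2.72, adjusted p = 0.400). In fits without a tumor it differed by 1.92 to 5.61. It was higher in both Lyve1Cre tumors, but 336 UMIs came from a single cell of the Lyve1Cre tumor of run 2.

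The gene that passed with the block and without doublets was S100a6, a calcium-binding protein of activated and myeloid cells. It stood at 49.2, 40.2, 35.9 and 28.3, lower in the Lyve1Cre tumor of each run, by −0.48 and −0.49 on levels scaled by TMM. It was not called without the block (−0.49 ± 0.33, adjusted p = 0.999), and passed with it (−0.49, adjusted p = 0.000843) and with it without doublets (−0.48, adjusted p = 0.0207). When a tumor was left out the difference lay between −0.20, without the control tumor of run 1, and −0.78, without the Lyve1Cre tumor of run 1, and was not called in any of the 4 fits. Isg15 stood at 6.87, 7.40, 4.17 and 4.73 and was not called without the block (−0.69 ± 0.24, adjusted p = 0.716). It passed with the block (adjusted p = 0.0044), but differed by −0.00 with the block once doublets were left out. Satb1 was higher with the block (1.01, adjusted p = 0.0221) but was not called without it (1.02 ± 0.26, adjusted p = 0.474). With the block it passed in thinned cells (1.45, adjusted p = 0.00015). It did not pass with the block once doublets were left out (0.93, adjusted p = 0.947) or limits were stricter (1.06, adjusted p = 0.0666). Csf1r at 0.389, 0.421, 0.187 and 0.145 and Cd68 at 1.30, 1.13, 0.578 and 0.524, both macrophage genes, were lower with the block (adjusted p = 0.0193 and 0.0037). Neither was called without the block (adjusted p = 0.378 for each) or with the block and stricter limits (adjusted p = 0.112 and 0.0603). Cd68 also did not pass with the block once doublets were left out (−0.67, adjusted p = 0.9998).

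**Figure D5:**
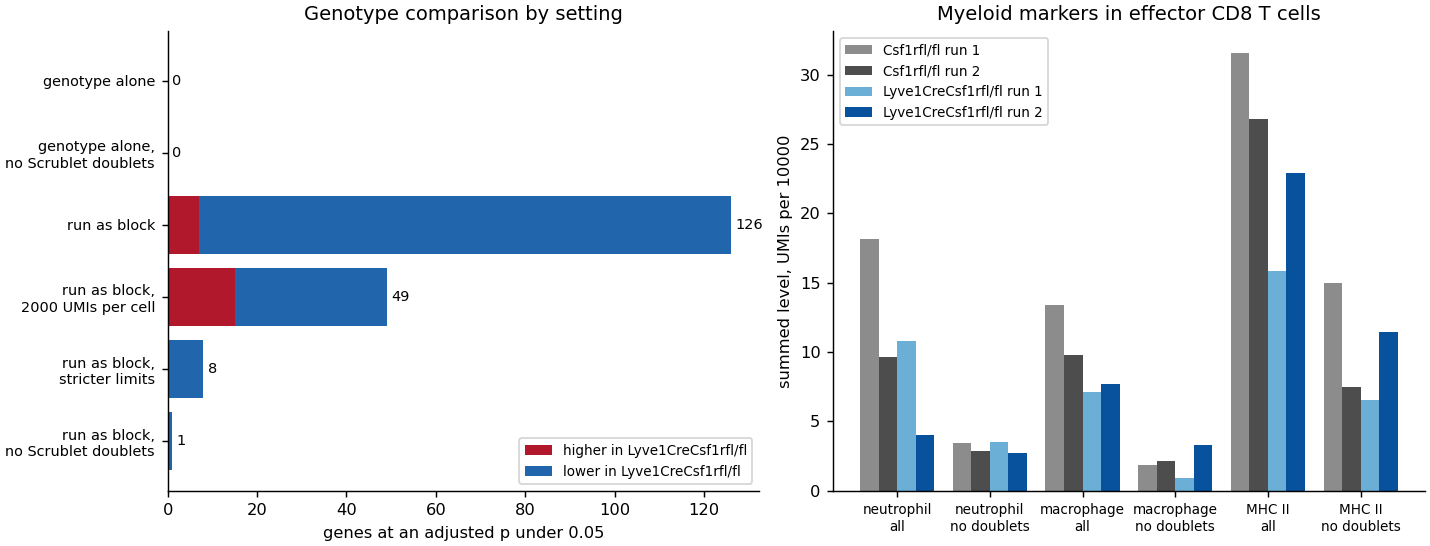
Left, number of genes of effector CD8 T cells lacking Tcf7 called by genotype (x axis) under 6 settings (y axis), split into higher and lower in Lyve1CreCsf1rfl/fl; right, summed UMIs per 10000 of the myeloid marker lists in each tumor with all members and without cells called doublets. Calls go from 0 to 126 with the run as a block and to 1 once doublets are left out.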

How the data were processed

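Viable CD45+ cells of EO771 tumors were profiled by 3′ single-cell RNA sequencing. Per the labels and the study's methods, the authors aligned reads to mm10 with Cell Ranger 6.0.1 and deposited raw UMI counts (cells by genes) with the raw counts of each hashtag. They also deposited corrected counts from Seurat, a score used here only to learn which 28429 of 53361 barcodes were kept. Per the study's methods, the authors dropped clusters almost wholly from the second Lyve1Cre tumor. The higher hashtag count gave the tumor, and 11 tied cells were left out. All values came from raw counts. A table of the authors' hashtag assignments was read for the tumor of each hashtag, and their own comparisons were not used.

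UMIs were summed per tumor and population and tested with edgeR 4.0.16 in R 4.3.3 (filterByExpr, TMM, quasi-likelihood test, adjusted p under 0.05), with the tumor as a term between populations, and with DESeq2 1.42.0 as an alternative. The fits were tested on simulated data. Doublets were kept and also called by Scrublet (scanpy 1.11.5, expected rate 0.2) and left out as an alternative. Other alternatives were stricter limits (30 and 2 per 10000), a hashtag ratio of 3, thinning to 2000 UMIs, no low-count filter and leaving out each tumor. Gene ratios within a run used TMM-scaled levels and a pseudocount of 0.05 per 10000. Tumors of the same run deviated together (r = 0.248 over 9145 genes, 0.531 over the 3990 with a mean log2 CPM above 5), and a run was 1 batch, so the block is given beside the genotype count. The expression library of a run pooled cells from a control mouse and a Lyve1Cre mouse, and hashtag counts assigned each cell. Genes were named from fixed lists and as the 10 largest rises and falls per comparison, and others were chosen after their values were seen. Members and lists were chosen with earlier results of these data known. Sequences came from RefSeq (GRCm38.p6), positions from mm10 annotation. Other software was pandas 2.3.3, numpy 2.4.6, matplotlib 3.10.9 and scipy 1.17.1 under Python 3.11.15.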

Additional observations from a re-analysis of the deposited data

How the results depend on the processing

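Calls between populations kept to within 1.5 times of the reported counts without a low-count filter, without doublets, with surer hashtags and with stricter myeloid limits. The 898 genes against Tcf7-positive cells became 408 in DESeq2, 260 in thinned cells and 264 without the replicate block of the tumor, and 450 to 684 when a tumor was left out, lowest without the Lyve1Cre tumor of run 1. The 1755 against NK cells became 941, 982 and 960 in the same order (1385 to 1439 without a tumor), and the 2559 against cycling cells 1230, 526 and 982 (1717 to 2358). By genotype, 0 genes became 4 in DESeq2, 170 without the low-count filter, 126 with the replicate block and 0 to 229 without a tumor, with 229 without the control tumor of run 2 and 52 without that of run 1, where the lone tumor of a group was assumed to vary like the others. Alternatives chosen after seeing the data combined the replicate block with other settings and gave 1 without doublets, 8 with stricter limits and 49 in thinned cells, and thinning alone gave 0. The cause was not tested. The share of kept cells ranged from −0.93 to 0.52 without a tumor and the share of CD8 T cells from −0.51 to 0.083, and both kept their direction under the other settings. Directions turned for Nkg7 against NK cells without doublets (0.0045), Gzmb against cycling cells in thinned cells (0.064) and Ifng against cycling cells without a tumor (−0.051 to 0.36). By genotype they turned without a tumor for Ccl5 (−0.72 to 0.067) and Ifng (−0.68 to 0.21). Without doublets they turned for Isg15 (0.0028), Irf7 (0.20, and 0.20 with the block) and, with the block, Gzmb (−0.0038). C1qb turned without doublets as well (0.026, and 0.14 with the block), but the rule limited its values, so nothing is read from it. Of the genes followed through these settings, 32 of 38 against NK cells, 35 of 56 against Tcf7-positive cells, 7 of 21 against cycling cells and 3 of 15 by genotype kept their direction and stayed on their side of the threshold in each setting that tested them, and some were too low to be tested in thinned cells, without doublets or with stricter limits.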
